A study of Mus musculus with 16 samples.

Results

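The islet of Langerhans holds alpha, delta and PP cells beside the insulin-producing beta cells, and 8 genes that mark these other endocrine cells were followed here in mouse islets: *Gcg*, *Ttr* and *Irx2* for alpha cells, *Sst*, *Hhex* and *Rbp4* for delta cells, and *Ppy* and *Pyy* for PP cells. They were chosen by name, and each of the 8 had 1 row among the 52636 genes of the count table. Islets of male mice aged 12 weeks (strain C57BL/6JRj in the labels, C57BL/6NRj in the paper), pooled from several animals, were cultured for 10 days in medium with human serum, 500 islets per condition. They received no addition (control), recombinant mouse IL-1β at 50 pg/mL, sodium butyrate at 0.2 mM, or IL-1β and butyrate together, and each condition had 4 RNA-seq libraries. IL-1β is a cytokine of inflammation. Butyrate is a fatty acid that bacteria of the gut release when they ferment fibre. A replicate is therefore a pool of islets and not a mouse, and no cell type was sorted.

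Alpha cells secrete glucagon, which raises blood glucose, delta cells secrete somatostatin, which restrains the release of insulin and glucagon, and PP cells secrete pancreatic polypeptide. *Gcg*, *Sst*, *Ppy* and *Pyy* encode the prohormones, which are cut into the active peptides in the secretory granules. *Irx2* and *Hhex* encode homeodomain transcription factors, and *Ttr* and *Rbp4* encode secreted carriers of thyroxine and of retinol that bind each other in plasma.

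The positions of the genes are given in GRCm38. *Gcg* (ENSMUSG00000000394) spans chr2:62474530-62483650 on the minus strand and *Irx2* (ENSMUSG00000001504) chr13:72628820-72634198 on the plus strand. *Sst* (ENSMUSG00000004366) spans chr16:23889573-23890958 on the minus strand, *Hhex* (ENSMUSG00000024986) chr19:37434810-37440731 on the plus strand and *Rbp4* (ENSMUSG00000024990) chr19:38116629-38125281 on the minus strand. *Ppy* (ENSMUSG00000017316, chr11:102099930-102101319) and *Pyy* (ENSMUSG00000017311, chr11:102106676-102107832) are neighbours on the minus strand, 5356 bases apart with 0 annotated genes between them. No exon of the 8 genes overlapped an exon of another gene in the annotation used.

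The 250 bases before the transcription start of the 4 prohormone genes are shown because these genes held the highest levels per length, and because *Ppy* and *Pyy* are adjacent. Sequences are from RefSeq (GRCm38.p6), written 5′ to 3′ on the strand of the gene, and capitals mark matches to the motifs searched. They come from chr2:62483654-62483903 for *Gcg*, chr16:23890845-23891094 for *Sst*, chr11:102101320-102101569 for *Ppy* and chr11:102107833-102108082 for *Pyy*, all on the minus strand. The starts are those of RefSeq. For *Sst* this start lies inside the GENCODE M21 span given above, and so does part of its window. For *Pyy* the first of its listed starts was used.
Gcg: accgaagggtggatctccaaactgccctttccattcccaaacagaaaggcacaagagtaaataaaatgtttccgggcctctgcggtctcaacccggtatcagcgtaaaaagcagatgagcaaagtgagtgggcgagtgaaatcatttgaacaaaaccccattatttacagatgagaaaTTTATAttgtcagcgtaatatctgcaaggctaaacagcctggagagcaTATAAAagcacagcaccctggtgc
Sst: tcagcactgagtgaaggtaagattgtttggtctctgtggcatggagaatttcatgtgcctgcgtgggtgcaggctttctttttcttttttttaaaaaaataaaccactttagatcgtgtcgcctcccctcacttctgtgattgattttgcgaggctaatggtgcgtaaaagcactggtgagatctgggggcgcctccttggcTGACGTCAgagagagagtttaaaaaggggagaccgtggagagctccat
Ppy: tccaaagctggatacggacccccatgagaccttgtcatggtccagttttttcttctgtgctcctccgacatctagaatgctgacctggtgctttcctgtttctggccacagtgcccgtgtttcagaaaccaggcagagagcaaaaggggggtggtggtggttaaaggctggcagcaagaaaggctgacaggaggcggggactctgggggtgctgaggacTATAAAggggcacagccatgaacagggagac
Pyy: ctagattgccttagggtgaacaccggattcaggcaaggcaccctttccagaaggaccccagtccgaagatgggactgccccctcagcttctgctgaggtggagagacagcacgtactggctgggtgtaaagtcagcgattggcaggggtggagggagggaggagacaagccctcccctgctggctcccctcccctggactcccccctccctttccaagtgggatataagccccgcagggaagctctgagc

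Each window was searched on both strands for 4 motifs: the cyclic AMP response element TGACGTCA, the TATA box TATAAA, the homeodomain core TAATTA and the GC box GGGCGG. *Sst* held the cyclic AMP response element at 48 to 41 bases before the start, a motif found in 1.55% of the 32851 promoter windows of the same length. *Gcg* and *Ppy* held a TATA box on the gene strand, at 24 to 19 and at 31 to 26 bases before the start, and *Gcg* a second one on the opposite strand at 72 to 67 bases. The TATA box was present in 12.4% of all windows. The *Pyy* window matched none of the 4, and neither did the window of its second listed start. Of the genes not printed, *Irx2* had 2 GC boxes and *Hhex* 3 (32.7% of all windows had at least 1), and *Rbp4* had a TATA box and 2 GC boxes before the second of its 2 listed starts and no match before the first. TAATTA, present in 4.84% of windows, was in none of the windows of these 7 genes, and *Ttr* has no entry in the promoter table. A match to these letters is a description of the sequence only.

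The libraries held 18635943 to 25955943 counts, with a median of 22184715, and the ranges of the 4 conditions overlapped. Levels are given as CPM (counts of a gene per 1000000 counts of a library) after TMM scaling of the library totals, so they are shares of the sequenced RNA. All 8 genes passed the filter on low counts and were among the 18587 genes tested. The least counted gene, *Hhex*, had 198 to 457 counts per library, *Irx2* had 323 to 541, and *Gcg* had 377707 to 623674. In bulk islets, fewer cells of a type and less RNA per cell cannot be told apart. Beta cell mRNA made up a large part of these libraries. The 10 beta cell markers followed here took 21.2 to 23% of the unscaled counts in control libraries and 14.8 to 18% with IL-1β alone.

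Per kilobase of exon, the levels of the 8 genes in control islets were ordered *Gcg* (14400 CPM per kb), *Ppy* (3270), *Sst* (2290), *Pyy* (1460), *Ttr* (952), *Rbp4* (86.5), *Irx2* (6.83) and *Hhex* (2.47), and no range over libraries overlapped that of its neighbour. The order was the same with butyrate. With IL-1β, *Sst* (2410 ± 300 CPM per kb, SD, n = 4) stood next to *Ppy* (2350 ± 340) with overlapping ranges, and likewise with both agents (3660 ± 330 and 3470 ± 510). In all 4 conditions *Gcg* was far above *Irx2*, and *Sst* far above *Hhex*.

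**Figure D1:**
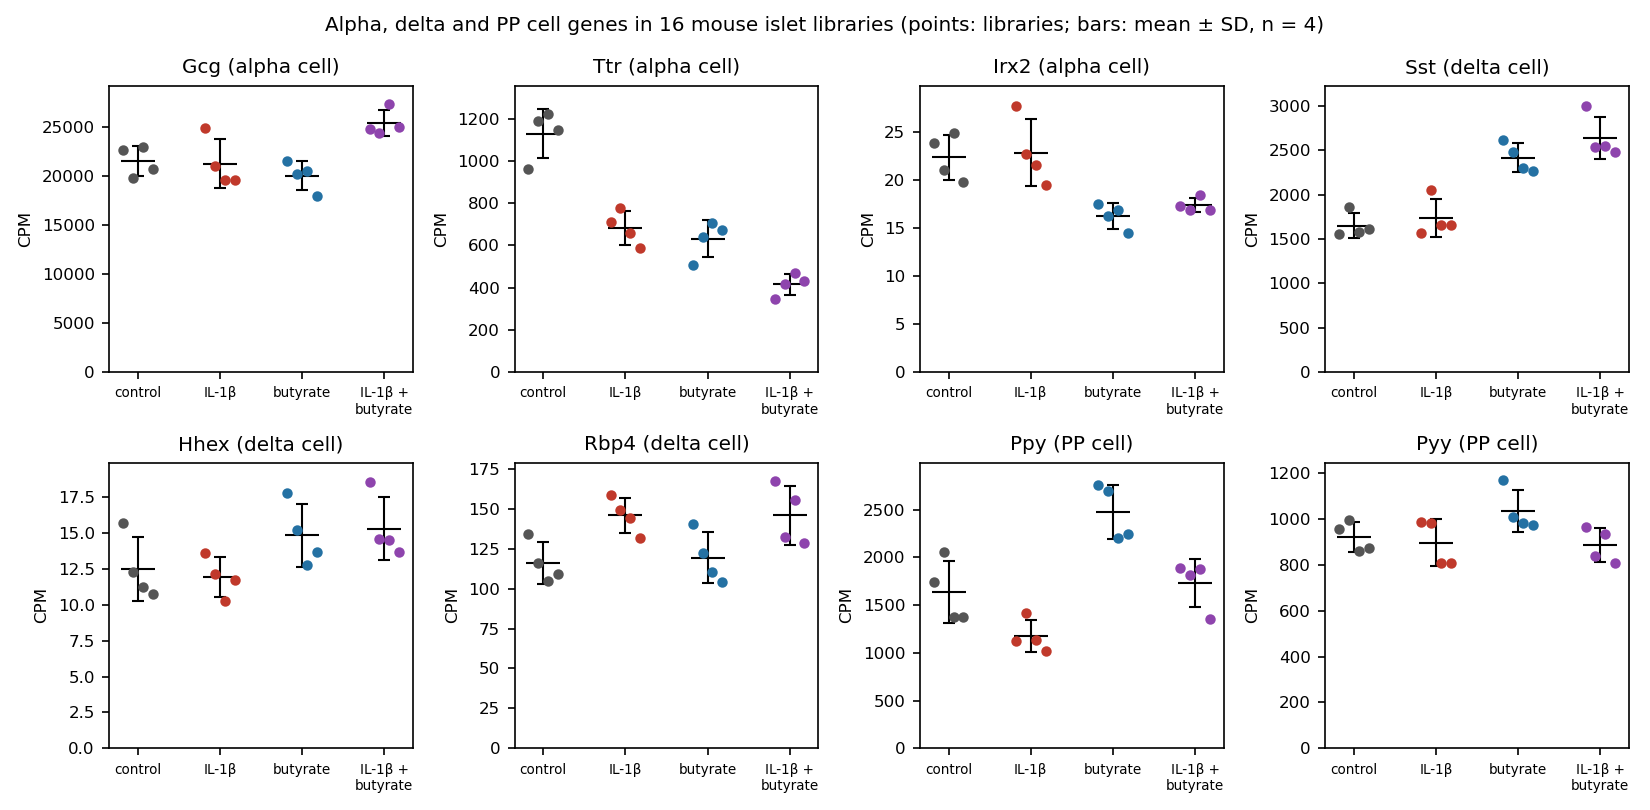
Expression of the 8 genes (y axes, CPM from 0, a linear scale that differs between panels) in control, IL-1β, butyrate and IL-1β plus butyrate islets (x axes). Points are libraries and bars are mean ± SD (n = 4). *Ttr* was lower in every treated library than in every control library, *Sst* was higher in the 8 libraries with butyrate than in the 8 without, and *Irx2* was lower in the 8 with butyrate than in the 8 without.

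*Ttr* (ENSMUSG00000061808, GRCm38, chr18:20665280-20674321, plus strand) showed the largest difference of the 8 genes. In control islets the level was 960.2, 1189, 1221 and 1148 CPM in replicates 1 to 4, and with IL-1β it was 710.3, 775.3, 656.3 and 588.7 CPM. With butyrate it was 508.2, 639.7, 708.0 and 672.1 CPM, and with both agents 345.2, 417.0, 466.7 and 429.9 CPM. The 4 control libraries were the highest and the 4 with both agents the lowest, without overlap with any other condition, while the libraries with IL-1β alone and butyrate alone overlapped each other. IL-1β lowered *Ttr* to 0.604 of the control level (log2 fold change -0.73, SE 0.12, adjusted p = 0.000403) and butyrate alone to 0.560 (log2 fold change -0.84, SE 0.12, adjusted p = 0.000122). Adding butyrate to IL-1β lowered it further (log2 fold change -0.72, adjusted p = 0.00048), and so did IL-1β in butyrate-treated islets (-0.61, adjusted p = 0.00205), leaving 0.367 of the control level with both (log2 fold change -1.45, SE 0.12, adjusted p = 3.24e-07). The effect of butyrate with IL-1β differed from that without it by a log2 value of 0.12 (95% interval -0.25 to 0.49, adjusted p = 0.957). *Ttr* is also a liver gene, and the liver marker *Alb* was at a mean of 0.432 to 1.48 CPM in the 4 conditions, at most 43 counts in a library. *Alb* fell with butyrate (log2 fold change -1.45, adjusted p = 0.000269) and with butyrate added to IL-1β (-1.64, adjusted p = 0.000109). With IL-1β alone it was at -0.12 (adjusted p = 0.777). The other liver marker tested, *Fgb*, rose with IL-1β (log2 fold change 2.51, adjusted p = 2.18e-05). It was at 0.49 with butyrate (adjusted p = 0.446) and at 0.30 with butyrate added to IL-1β (adjusted p = 0.426). The part of liver RNA in the *Ttr* values was not tested.

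*Irx2*, the alpha cell homeobox gene, differed between islets with and without butyrate. It was 23.85, 21.06, 24.89 and 19.86 CPM in the control libraries and 27.76, 22.74, 21.56 and 19.52 CPM with IL-1β. Butyrate libraries had 17.48, 16.26, 16.88 and 14.45 CPM, and those with both agents 17.30, 16.89, 18.44 and 16.95 CPM. Each library with butyrate was below each library without it, while control and IL-1β overlapped. Butyrate lowered *Irx2* alone (log2 fold change -0.46, SE 0.091, adjusted p = 0.000358) and in the presence of IL-1β (-0.39, SE 0.089, adjusted p = 0.00174). IL-1β alone left a difference of 0.03 (95% interval -0.15 to 0.21, adjusted p = 0.863), and in butyrate-treated islets one of 0.10 (95% interval -0.09 to 0.29, adjusted p = 0.521). With both agents *Irx2* was lower than in control islets (log2 fold change -0.36, adjusted p = 0.00192), a call that was lost without control replicate 3 (-0.31, adjusted p = 0.0107).

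*Gcg*, the proglucagon gene and the most abundant of the 8, was 22680, 19790, 22900 and 20740 CPM in control islets and 24920, 20980, 19580 and 19550 CPM with IL-1β. It was 21500, 20140, 20450 and 17930 CPM with butyrate, and 24780, 24370, 27310 and 24950 CPM with both agents. All libraries with both agents were above all control and butyrate libraries, but IL-1β replicate 1 lay within their range, and the other 3 conditions overlapped one another. Neither agent alone changed *Gcg* past the threshold: the log2 fold change was -0.02 with IL-1β (95% interval -0.17 to 0.13, adjusted p = 0.888) and -0.11 with butyrate (95% interval -0.25 to 0.04, adjusted p = 0.301). Both agents together gave 25400 ± 1300 CPM (SD, n = 4), 1.27 times butyrate alone (log2 fold change 0.34, SE 0.072, adjusted p = 0.000757) and 1.19 times IL-1β alone (0.25, adjusted p = 0.00869). Against control the value was 1.18 times (log2 fold change 0.24, SE 0.072), with an adjusted p of 0.0101, just outside the threshold of 0.01.

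The *Gcg* value against control passed the threshold with DESeq2 (adjusted p = 0.00334), limma-voom (0.00793), RLE scaling (0.00837), upper-quartile scaling (0.00265), library size only (0.00032), scaling without the hormone genes (0.00797) and no filter on low counts (8.77e-07), with log2 fold changes of 0.24 to 0.31. An edgeR fit with replicate number as a block also called it (adjusted p = 0.000454). Whether libraries of the same number belong together is not given in the sources used here. The 2 *Gcg* comparisons nearest the threshold also depended on single libraries. The call against IL-1β was lost in 11 of the 16 fits that left out 1 library. The adjusted p was 0.0108 without control replicate 3 and 0.0114 without control replicate 4. It was 0.0238, 0.0513 and 0.0416 without IL-1β replicates 2, 3 and 4, and 0.0125 and 0.0115 without butyrate replicates 2 and 3. Without replicates 1 to 4 of the islets with both agents it was 0.0188, 0.0141, 0.0543 and 0.0205. The log2 fold change stayed between 0.20 and 0.32. Against control, *Gcg* passed the threshold in 6 of these 16 fits, with adjusted p = 0.00946 without control replicate 1 and 0.00989 without control replicate 3, adjusted p = 0.00181, 0.00981 and 0.00759 without IL-1β replicates 1, 3 and 4, and 0.00815 without butyrate replicate 4.

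The delta cell hormone gene *Sst* was higher with butyrate. Its level was 1552, 1860, 1573 and 1615 CPM in control islets and 1567, 2055, 1657 and 1661 CPM with IL-1β. It was 2611, 2486, 2305 and 2271 CPM with butyrate and 2998, 2534, 2551 and 2479 CPM with both agents. The 8 libraries with butyrate were all above the 8 without, and within each of these sets the ranges overlapped. Butyrate raised *Sst* 1.47-fold on its own (log2 fold change 0.55, SE 0.081, adjusted p = 2.78e-05) and 1.52-fold in the presence of IL-1β (0.61, SE 0.081, adjusted p = 1.01e-05). The difference between these 2 effects was 0.05 on the log2 scale (95% interval -0.19 to 0.29, adjusted p = 0.975). IL-1β gave a log2 fold change of 0.07 without butyrate (95% interval -0.10 to 0.24, adjusted p = 0.571) and 0.13 with it (95% interval -0.04 to 0.30, adjusted p = 0.319). With both agents *Sst* was 1.60 times control (log2 fold change 0.68, adjusted p = 1.02e-06).

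*Hhex*, the transcription factor gene of delta cells, was 15.68, 12.26, 11.23 and 10.74 CPM in control islets and 13.60, 12.12, 10.26 and 11.76 CPM with IL-1β. It was 17.78, 15.23, 12.75 and 13.68 CPM with butyrate and 18.56, 14.56, 14.50 and 13.67 CPM with both agents. Control and butyrate libraries overlapped, whereas all libraries with both agents were above all with IL-1β alone. No comparison of *Hhex* passed the threshold in the edgeR fit, nor with DESeq2 or limma-voom. Butyrate gave a log2 fold change of 0.25 against control (95% interval -0.02 to 0.52, adjusted p = 0.157) and, added to IL-1β, one of 0.36 (95% interval 0.09 to 0.63, adjusted p = 0.0393). With both agents against control it was 0.30 (adjusted p = 0.069), which became 0.43 (adjusted p = 0.00468) without control replicate 1. Without the filter on low counts, the comparisons of both agents with IL-1β and with control passed (adjusted p = 0.00018 and 0.00103). With the replicate block these comparisons passed as well (adjusted p = 5.76e-05 and 0.00025), and so did butyrate against control (0.00247).

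*Rbp4* was 134.4, 116.1, 104.5 and 109.4 CPM in control islets and 158.4, 149.1, 144.2 and 131.7 CPM with IL-1β. It was 140.3, 122.6, 110.7 and 104.4 CPM with butyrate and 167.3, 132.2, 155.7 and 128.9 CPM with both agents. Libraries with IL-1β lay mostly above those without it, but the ranges of all conditions overlapped. *Rbp4* was 1.26 times control with IL-1β (log2 fold change 0.33, SE 0.11, adjusted p = 0.0387) and 1.22 times butyrate with both agents (0.29, adjusted p = 0.077), neither past the threshold in the edgeR fit. With IL-1β against control the adjusted p was 0.00317 with DESeq2, 0.0092 with limma-voom and 0.00671 with library size only, and for both agents against butyrate it was 0.00642 with library size only. Butyrate gave a log2 fold change of 0.04 alone (95% interval -0.20 to 0.28, adjusted p = 0.827). With both agents against control it was 0.33 (adjusted p = 0.0249), and 0.41 (adjusted p = 0.00812) without control replicate 1. DESeq2, limma-voom and library size only also called it (adjusted p = 0.00188, 0.00578 and 0.00307). The replicate block called *Rbp4* for IL-1β against control, both agents against control and both against butyrate (adjusted p = 9.88e-07, 5.95e-07 and 9.79e-06).

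Among the PP cell genes, *Ppy* was 1744, 2053, 1374 and 1376 CPM in control islets and 1128, 1412, 1136 and 1015 CPM with IL-1β. It was 2753, 2691, 2207 and 2247 CPM with butyrate and 1887, 1816, 1874 and 1354 CPM with both agents. The butyrate libraries were all above those of every other condition. Control overlapped with IL-1β through IL-1β replicate 2, and the libraries with both agents overlapped with control and, through replicate 4, with IL-1β. *Ppy* had the largest spread of the 8 genes in control islets (SD 330 CPM, 20% of the mean), and no comparison passed the threshold of 0.01 in the edgeR fit. The log2 fold change was -0.48 with IL-1β (SE 0.16, adjusted p = 0.0369), 0.60 with butyrate (SE 0.16, adjusted p = 0.0109) and 0.56 with butyrate added to IL-1β (SE 0.16, adjusted p = 0.0154). IL-1β in butyrate-treated islets gave -0.51 (adjusted p = 0.0311), and with both agents *Ppy* differed from control by 0.08 (95% interval -0.26 to 0.42, adjusted p = 0.733).

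Other methods called *Ppy* at the same threshold with values of similar size. For butyrate against control the adjusted p was 0.0009 with DESeq2, 0.000541 with limma-voom, 0.0055 with upper-quartile scaling and 0.00693 with library size only, and for butyrate added to IL-1β it was 0.00238, 0.00126, 0.0081 and 0.00733. IL-1β in butyrate-treated islets gave 0.0072 with DESeq2 and 0.00284 with limma-voom, and IL-1β against control 0.0056 with limma-voom. With the replicate block the adjusted p against control was 0.000178 with butyrate and 0.00132 with IL-1β. It was 0.000326 for butyrate added to IL-1β and 0.000783 for IL-1β in butyrate-treated islets. The edgeR values near the threshold also moved past it when single libraries were left out. For butyrate against control the adjusted p was 0.00325 without control replicate 2 (log2 fold change 0.72), 0.00944 without IL-1β replicate 2 and 0.00621 without replicate 4 of the islets with both agents. For butyrate added to IL-1β it was 0.00791, 0.00984 and 0.00614 without the same 3 libraries. Leaving out any other library gave no call of *Ppy* in these 2 comparisons. The adjusted p rose to 0.0366 for butyrate against control without control replicate 3. It rose to 0.0515 for butyrate added to IL-1β without IL-1β replicate 4. *Pyy*, the adjacent gene encoding peptide YY, was 954.2, 996.3, 859.8 and 872.9 CPM in control islets and 987.3, 982.1, 805.8 and 809.1 CPM with IL-1β. It was 1168, 1009, 982.1 and 972.5 CPM with butyrate and 962.7, 839.5, 934.6 and 806.2 CPM with both agents. Only butyrate against both agents left ranges of *Pyy* that did not overlap (log2 fold change -0.22 for both against butyrate, 95% interval -0.39 to -0.05, adjusted p = 0.0537, and 0.00225 without the filter on low counts). Its log2 fold change was -0.04 with IL-1β (95% interval -0.21 to 0.13, adjusted p = 0.771), 0.17 with butyrate (SE 0.080, adjusted p = 0.132) and -0.02 with butyrate added to IL-1β (95% interval -0.18 to 0.15, adjusted p = 0.904). The replicate block called *Pyy* for butyrate against control (adjusted p = 0.00816) and for both agents against butyrate (0.000637).

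**Figure D2:**
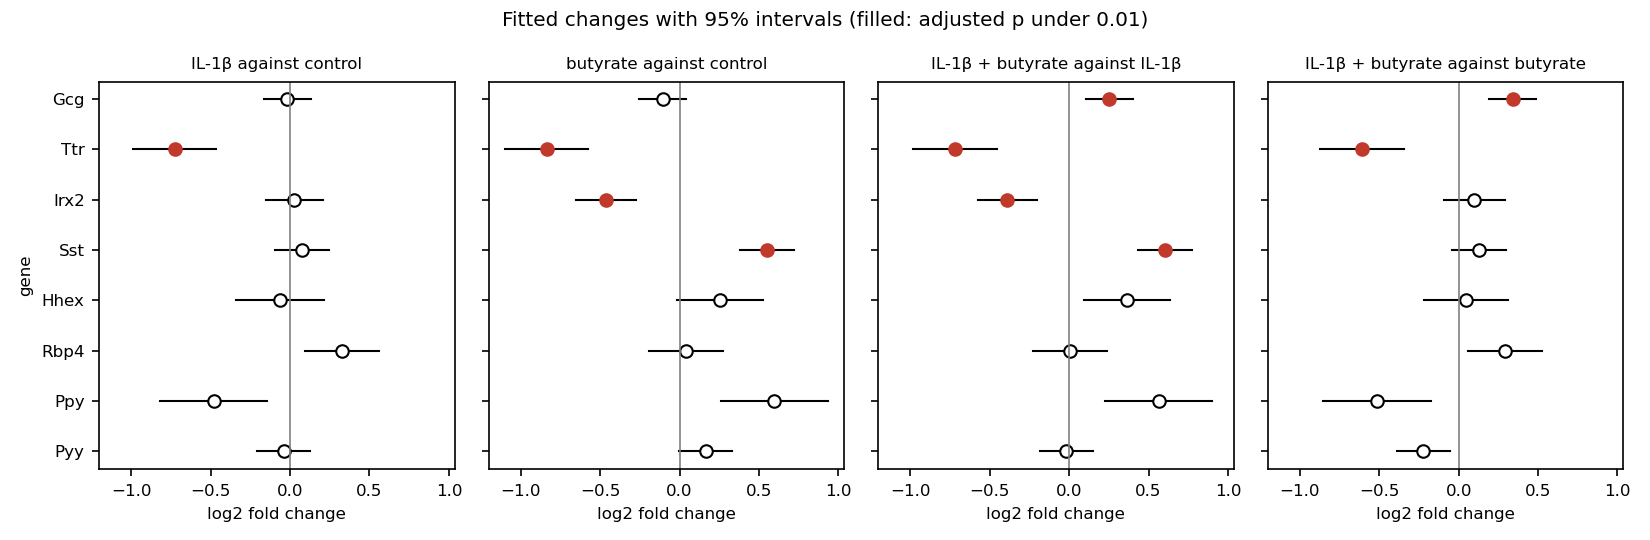
Fitted log2 fold changes of the 8 genes (x axes) with 95% intervals in 4 comparisons, from the edgeR model of all 16 libraries. Filled points have an adjusted p under 0.01: *Ttr* was filled in all 4 panels, always below 0, *Irx2* and *Sst* in the 2 panels where butyrate was added, and *Gcg* in the 2 panels where both agents were set against one of them.

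Set side by side, IL-1β against control changed 1 of the 8 genes, *Ttr*, downwards, where 17.8% of all genes tested were called (11.2% raised and 6.59% lowered). *Ttr* was also the 1 gene whose libraries did not overlap between these conditions, against 24.7% of all genes. Butyrate against control changed 3 of 8, *Sst* upwards and *Ttr* and *Irx2* downwards, against 19.9% of all genes called (8.53% raised and 11.4% lowered), and 4 of 8 did not overlap (those 3 and *Ppy*), against 30.1%. The median log2 fold change of the 8 genes was 0.10 there and 0.0065 over all genes, and for IL-1β it was -0.03 and -0.025. The share of raised genes among all genes called depended on the scaling: with IL-1β it was 2087 of 3311, 1914 of 3714 with upper-quartile scaling and 2798 of 3506 with library size only, and with butyrate 1585 of 3697 and 2207 of 3773 with upper-quartile scaling. These comparisons share the control libraries, so their values are given beside each other and not correlated.

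Butyrate in the presence of IL-1β changed 4 of 8 genes, raising *Gcg* and *Sst* and lowering *Ttr* and *Irx2*, against 19.5% of all genes called (8.41% raised and 11.1% lowered). The libraries of 4 genes did not overlap (*Ttr*, *Irx2*, *Sst* and *Hhex*), against 26.9% of all genes. Of all genes called, 1563 of 3629 were raised, and 2137 of 3703 with upper-quartile scaling. IL-1β in butyrate-treated islets changed 2 of 8, *Gcg* upwards and *Ttr* downwards, against 14.8% of all genes called (9.92% raised and 4.86% lowered), with 4 of 8 not overlapping (*Gcg*, *Ttr*, *Ppy* and *Pyy*) against 24.2%. Both agents against control changed 3 of 8, *Sst*, *Ttr* and *Irx2*, against 30.6% of all genes called (15.8% raised and 14.8% lowered), with 4 of 8 not overlapping (those 3 and *Gcg*) against 38.5%. In the first of these, 1844 of the 2747 genes called were raised, 1612 of 3032 with upper-quartile scaling and 3153 of 3604 with library size only, and in the second 2937 of 5688, and 3805 of 5689 with library size only.

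The difference between the effect of butyrate with IL-1β and its effect without IL-1β was also tested. Of the 8 genes 0 passed edgeR's threshold, where 0.0968% of all genes did (18 of 18587, with 0.043% raised and 0.0538% lowered), and DESeq2 and limma-voom also called 0 of 8, while without the filter on low counts *Gcg* was called (adjusted p = 6.92e-06). The replicate block called *Gcg* too (adjusted p = 0.00685). At an unadjusted p under 0.05 there was 1 gene, *Gcg*, with a difference of 0.36 on the log2 scale (SE 0.10, 95% interval 0.15 to 0.57, adjusted p = 0.194 by edgeR). The value was 0.12 for *Ttr*, 0.07 for *Irx2*, 0.05 for *Sst*, 0.11 for *Hhex*, -0.04 for *Rbp4*, -0.03 for *Ppy* and -0.18 for *Pyy*. The 95% interval was widest for *Ppy*, from -0.51 to 0.44.

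Ratios of counts within a library do not depend on its scaling and set marker genes beside each other. In unsorted islets they do not tell which cells held the RNA. In control islets there were 951, 940, 920 and 1044 counts of *Gcg* per count of *Irx2*, and with IL-1β 898, 923, 908 and 1001. With butyrate the ratio was 1230, 1239, 1212 and 1241, and with both agents 1432, 1442, 1481 and 1472. The libraries with butyrate alone lay above all without butyrate, and those with both agents above all others. The spread of this ratio over replicates (1.1% of the mean with butyrate and 1.6% with both) was below the counting error of *Irx2* in 1 library (5.4% and 5.0%). In control islets and with IL-1β the spread was 5.7% and 5.0%, above the counting error of 4.5% in each.

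*Gcg* per *Ttr* was 19.3 ± 3.0 in control islets, 31.3 ± 3.6 with IL-1β, 32.3 ± 6.9 with butyrate and 61.7 ± 6.7 with both agents (SD, n = 4 each). The 3 alpha cell genes thus took different courses: the ratio with both agents was 3.2 times control for *Gcg* per *Ttr* and 1.51 times for *Gcg* per *Irx2*. *Gcg* per *Sst* was 13.2 ± 1.9 in control islets and 12.4 ± 2.4 with IL-1β, 8.28 ± 0.42 with butyrate and 9.66 ± 1.0 with both. Only butyrate against control left ranges of this ratio that did not overlap among the comparisons with control.

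For the neighbouring genes, *Ppy* per *Pyy* was 1.83, 2.06, 1.60 and 1.58 in control islets and 1.14, 1.44, 1.41 and 1.25 with IL-1β. It was 2.36, 2.67, 2.25 and 2.31 with butyrate and 1.96, 2.16, 2.00 and 1.68 with both agents. The ratio was lower in each IL-1β library and higher in each butyrate library than in every control library, and with both agents it lay between those of IL-1β and of butyrate without overlap, and overlapped with control. *Sst* per *Rbp4*, a pair of delta cell genes, was 14.3 ± 1.9 in control islets, 11.9 ± 1.7 with IL-1β, 20.4 ± 1.3 with butyrate and 18.2 ± 1.3 with both, and the libraries with butyrate did not overlap with those without. These ratios are descriptions and were not tested.

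**Figure D3:**
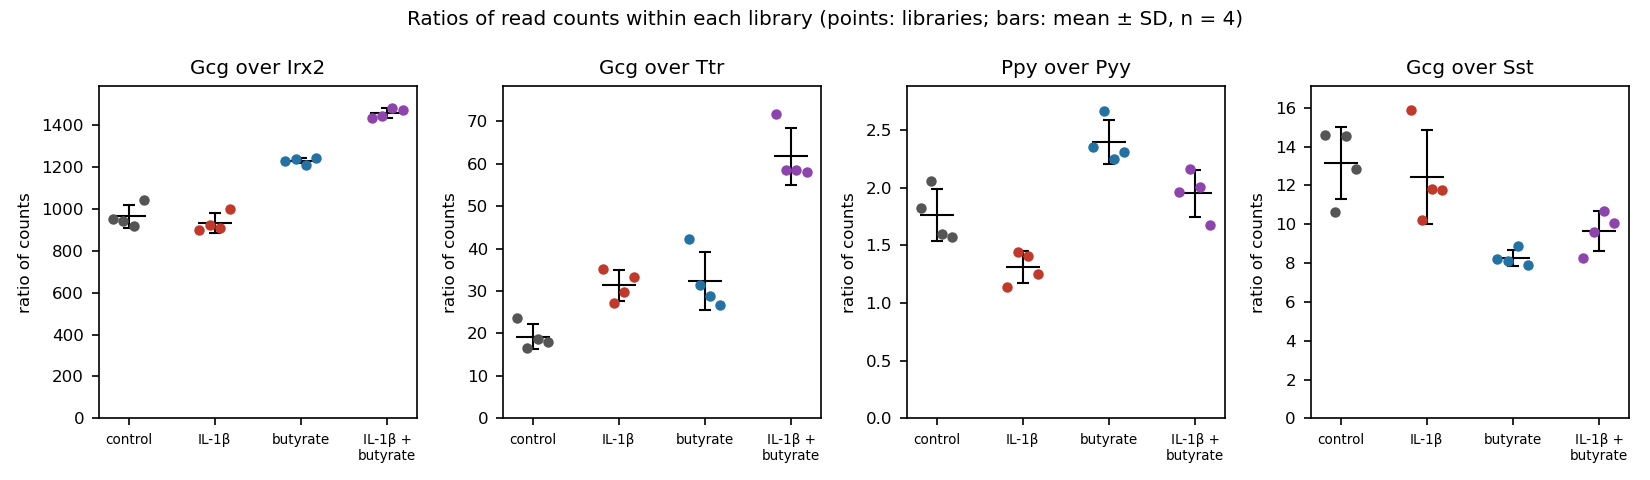
Ratios of read counts of 2 genes within each library (y axes from 0, different scales) in the 4 conditions (x axes), as points with mean ± SD (n = 4). *Gcg* per *Irx2* was 1460 ± 23 with both agents and 964 ± 55 in control islets, and *Ppy* per *Pyy* was lowest with IL-1β (1.31 ± 0.14) and highest with butyrate (2.40 ± 0.19).

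Against the beta cell, *Gcg* per *Ins2* (the main mouse insulin gene) was 0.149 ± 0.017 in control islets, 0.243 ± 0.034 with IL-1β, 0.124 ± 0.0064 with butyrate and 0.289 ± 0.035 with both agents. *Sst* per *Ins2* was 0.0114 ± 0.00038, 0.0198 ± 0.0022, 0.0150 ± 0.0013 and 0.0301 ± 0.0042 in the same order. *Ins2* itself was lowered by IL-1β (log2 fold change -0.72, adjusted p = 2.27e-07) to 88000 ± 11000 CPM from 145000 ± 7900 in control islets, while *Gcg* and *Sst* did not pass the threshold. The denominator of both ratios therefore moved with IL-1β.

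Other markers of the 3 cell types did not all follow the genes above. Of the 4 further alpha cell genes, IL-1β raised *Gc*, the vitamin D binding protein gene (log2 fold change 0.66, adjusted p = 0.000997), and lowered *Slc7a2*, a cationic amino acid transporter gene (-0.55, adjusted p = 1.73e-08). *Irx1* (0.04, adjusted p = 0.759) and *Pou3f4* (0.37, adjusted p = 0.332) did not pass. Butyrate against control lowered 2 of the 4, *Gc* (-1.30, adjusted p = 3.71e-06) and *Irx1*, the paralog of *Irx2* (-0.73, adjusted p = 6.53e-07), and raised none. In the presence of IL-1β butyrate lowered the same 2 genes, *Gc* by 0.73 and *Irx1* by 0.54 on the log2 scale. The median log2 fold change of the 4 genes was 0.20 with IL-1β and -0.38 with butyrate, where all genes had -0.025 and 0.0065. Of all genes tested, IL-1β raised 11.2% and lowered 6.59%, and butyrate raised 8.53% and lowered 11.4%.

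IL-1β in butyrate-treated islets raised *Gc* (log2 fold change 1.23, adjusted p = 6.12e-06) and lowered *Slc7a2* (-0.58, adjusted p = 7.52e-09). Of the 7 alpha cell genes reported here, both agents against control lowered 4 (*Ttr*, *Irx2*, *Irx1* and *Slc7a2*) and raised 0. Among all genes tested, 14.8% were lowered and 15.8% raised in that comparison. *Gc*, at 177 CPM in control islets and 168 CPM with both, differed by -0.07 (adjusted p = 0.704).

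The 3 further delta cell genes, *Ghsr* (the ghrelin receptor), *Ptprz1* (a receptor tyrosine phosphatase) and *Lepr* (the leptin receptor), passed in 0 of the 5 comparisons of conditions by edgeR. Of all genes tested, 14.8% to 30.6% were called in these comparisons, so 0 of 3 genes is little to go by. *Ptprz1* came nearest, with a log2 fold change of 0.39 with IL-1β (adjusted p = 0.0124). *Ghsr* was 0.34 lower on the log2 scale with butyrate without passing (adjusted p = 0.15), whereas *Sst* rose. *Lepr* was at 0.383 to 0.607 CPM, at most 17 counts in a library. Of the 2 further PP cell genes, *Fxyd6*, which encodes a regulator of the sodium pump, rose with IL-1β (log2 fold change 0.62, adjusted p = 1.14e-09) and fell with butyrate (-0.35, adjusted p = 2.03e-05), opposite in sign to the values of *Ppy*. *Etv1*, a transcription factor gene, fell with butyrate (-0.45, adjusted p = 1.71e-05). *Ghrl*, the hormone gene of epsilon cells, was at 0.567 to 1.09 CPM and did not pass in any comparison of conditions (log2 fold change -0.73 with IL-1β, adjusted p = 0.0461).

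**Figure D4:**
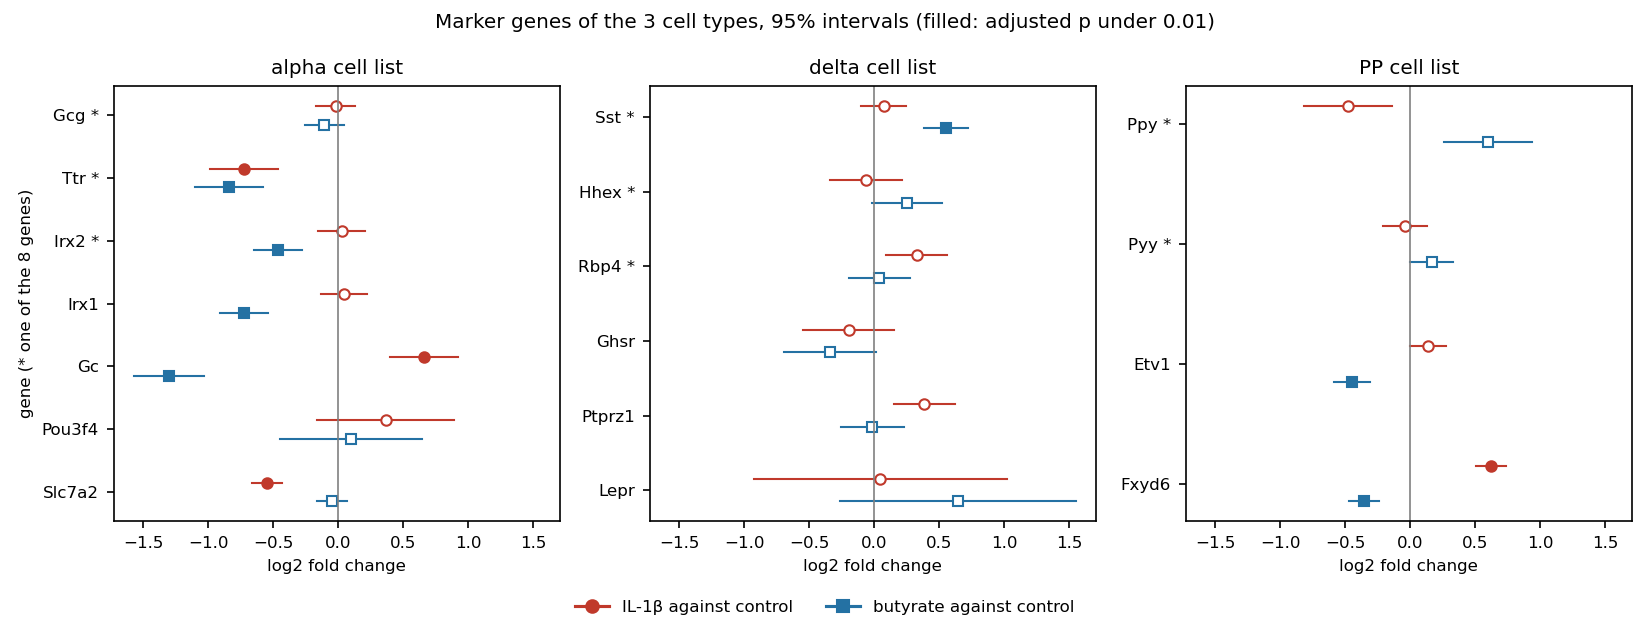
Log2 fold changes (x axes) with 95% intervals of the alpha, delta and PP cell marker genes with IL-1β (circles) and with butyrate (squares) against control, filled where the adjusted p was under 0.01. Asterisks mark the 8 genes. In the alpha cell list 4 genes fell with butyrate and 0 rose, and in the delta cell list 1 gene, *Sst*, rose with butyrate and 0 fell. Of all genes tested, 11.4% fell and 8.53% rose with butyrate.

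Genes that process these prohormones also moved. The prohormone convertase *Pcsk2*, which cuts proglucagon to glucagon, fell with IL-1β (log2 fold change -0.21, adjusted p = 0.00272) and with butyrate (-0.26, adjusted p = 0.000288), and was at -0.53 with both against control (adjusted p = 3.44e-09). *Pcsk1*, the other convertase, rose with IL-1β (0.72, adjusted p = 8.65e-10) and fell with butyrate (-0.33, adjusted p = 0.000197). Of the 6 genes of prohormone processing, IL-1β raised 4 (*Pcsk1*, *Pcsk1n*, *Cpe* and *Pam*) and lowered 1, and butyrate raised 0 and lowered 4 (*Pcsk1*, *Pcsk2*, *Cpe* and *Pam*), where 11.2% of all genes were raised and 6.59% lowered with IL-1β, and 8.53% raised and 11.4% lowered with butyrate. These genes are also expressed in beta cells. Their median log2 fold change was 0.33 with IL-1β and -0.27 with butyrate.

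Of 12 receptor genes for glucagon, the incretins, somatostatin and the neuropeptide Y family, 7 passed the filter. Of these 7, IL-1β raised 2 and lowered 1, and butyrate raised 0 and lowered 2. Of all genes tested, IL-1β raised 11.2% and lowered 6.59%, and butyrate raised 8.53% and lowered 11.4%. The somatostatin receptor *Sstr3*, the most abundant somatostatin receptor here at 254 CPM in control islets, fell with butyrate (log2 fold change -0.35, adjusted p = 1.68e-06) and with butyrate added to IL-1β (-0.35, adjusted p = 1.83e-06), where *Sst* rose. *Sstr5* rose with IL-1β to 2.48 CPM from 0.683 (1.85, adjusted p = 2.55e-06) and was 0.373 CPM with both agents (-2.73 against IL-1β, adjusted p = 3.79e-08). *Sstr1* was raised with both agents against control (log2 fold change 0.60, adjusted p = 0.00231), where *Sstr3* was at -0.49 (adjusted p = 2.03e-09). The glucagon receptor *Gcgr* was 55.4 to 57.8 CPM in the 4 conditions, and its adjusted p was 0.462 or above in each of the 5 comparisons.

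Of the 10 regulators shared by endocrine cells, IL-1β raised 4 (*Neurog3*, *Neurod1*, *Isl1* and *Rfx6*) and lowered 0, with a median log2 fold change of 0.04. Butyrate raised *Neurog3* (0.33, adjusted p = 0.00731) and lowered *Fev* (-0.65, adjusted p = 0.000106), *Isl1* (-0.38, adjusted p = 4.12e-06) and *Rfx6* (-0.15, adjusted p = 0.00857). *Pax6*, a transcription factor gene of all islet endocrine cells, was 410 CPM in control islets and 367 CPM with both agents (log2 fold change -0.16, adjusted p = 0.00342). Of the 10 beta cell genes IL-1β raised 1 (*Iapp*) and lowered 8, with a median of -0.57, and butyrate raised 3 and lowered 1, with a median of 0.07. Of the 5 granule proteins IL-1β raised 1 and lowered 1, and butyrate raised 2 and lowered 1, where 17.8% and 19.9% of all genes were called in these comparisons. Of all genes tested, IL-1β raised 11.2% and lowered 6.59%, and butyrate raised 8.53% and lowered 11.4%.

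Some markers of other cells also moved with IL-1β. All 6 macrophage genes rose with IL-1β, with *Lyz2* at 48.1 CPM against 10.1. Their summed level, here and below in CPM of unscaled library totals, was 13.1 to 23.3 in control and 63.9 to 121 with IL-1β. It was 10.9 to 19.2 with butyrate and 30.4 to 66.6 with both. Of the other lists, IL-1β raised 3 of 5 duct genes, 2 of 4 tested acinar genes, 1 of 5 tested endothelial genes, 1 of 2 tested hepatocyte genes and 0 of 4 Schwann cell genes, and lowered 2 of 8 fibroblast and stellate genes and 0 of the others. Of all genes tested, IL-1β raised 11.2% and lowered 6.59%. Summed levels were 323 to 858 CPM for duct genes, 8.98 to 29.1 CPM for acinar genes, 5.01 to 9.03 CPM for endothelial genes, 6.09 to 22.4 CPM for fibroblast and stellate genes, 8.70 to 14.6 CPM for Schwann cell genes and 1.21 to 7.19 CPM for hepatocyte genes over the 4 conditions. The duct sum was mostly *Krt7* (336 CPM in control islets, 394 with IL-1β) and *Spp1* (11.9 and 158). *Krt19* and *Sox9* were not called with IL-1β (adjusted p = 0.0179 and 0.576). Most of the control acinar sum was *Cela1*, at 22 CPM and at 14.5 with IL-1β (log2 fold change -0.61, adjusted p = 0.0161). The 2 acinar genes raised, *Cpb1* and *Ctrb1*, went the other way. The part of these other cells in the values of the 8 genes was not tested. Of 5 partners of the retinol carriers 1 passed the filter, and it was not called in any comparison.

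For each of the 8 genes, the genes with the most similar pattern over the 16 libraries were sought among 7949 genes with an average log2 CPM of at least 4 (7950 for *Hhex*, itself below that level). Likeness was the root mean square difference of the log2 CPM profiles, each centred on its own mean. *Trpm4*, a calcium-activated cation channel gene, was nearest to *Sst* (difference 0.079, where the SD of the *Sst* profile was 0.33), followed by *Cd99l2* and *Cxxc5*. *Ikbke*, *Abcb10* and *Ppp1cc* were nearest to *Gcg* (0.10 to 0.11, SD 0.17), and *Sdc3*, *Cadm1* and *Tubb6* to *Ttr* (0.20 to 0.21, SD 0.56). *Irx2* was nearest to *Cebpz*, *Map1s* and *Ddx41* (from 0.091, SD 0.26), and *Ppy* to *Kcnab3*, *Gadd45a* and *Hadh* (from 0.18, SD 0.44). For *Hhex* they were *Srebf2*, *Chd7* and *Wnt4* (from 0.10, SD 0.24), for *Rbp4* *Rai2*, *Mid1ip1* and *Grk2* (from 0.082, SD 0.22) and for *Pyy* *Pgrmc2*, *Ube2g2* and *Bcar1* (from 0.066, SD 0.15). None of the 8 genes was among the nearest 3 of another, but *Hhex*, below the level set, could not be.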

How the data were processed

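Mouse islet RNA was sequenced as single-end libraries (16 libraries, 4 conditions of 4). Per the labels and the methods, the authors mapped reads to GRCm38 (mm10) with STAR 2.5.3a and deposited raw counts per gene, whole numbers without normalization. The annotation release, the counting tool and the strand setting are not given in the sources used here. Of 52636 identifiers, 52489 were in GENCODE M21, which gave symbols, exons and positions, and 10560 had no count in any library.

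In R 4.3.3, low counts were filtered with filterByExpr of edgeR 4.0.16, libraries were scaled by TMM, and edgeR fitted 1 robust quasi-likelihood model of the 4 conditions to all 16 libraries. The 5 comparisons of conditions and the interaction were tested, which share libraries. Calls required an adjusted p (Benjamini-Hochberg, over all genes tested) under 0.01, the threshold of the study. Standard errors are the log2 fold change divided by the root of its F statistic, and 95% intervals use the total degrees of freedom. CPM values are TMM-scaled, apart from the summed levels of lists and the beta cell share, which are of unscaled library totals. Levels between genes are divided by the length of merged exons. The script was tested on simulated counts with the same spread set for every gene. At the threshold used here it found 13 of 66 genes changed by a log2 value of 0.5, and 62 of 67 changed by 1. It found 67 of 67 changed by 2, with 0 false calls. The paper calls the libraries of a condition biological replicates from independent experiments, on islets pooled from several mice, so p-values measure the spread between such experiments and not between mice. Replicates of a condition differed by more than counting error (chi-square per gene 1.72 to 13.5, near 1 for counting error alone). The reads carried no molecular identifiers.

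All 8 genes are named, with members of the lists that define the list or, of those called, have the largest changes, and the 3 genes nearest in pattern. The list genes *Irx1*, *Pou3f4*, *Ptprz1*, *Ghsr*, *Lepr*, *Pax6*, *Gcgr*, *Fgb*, *Krt19*, *Sox9* and *Cela1*, where not called, were named after their values were seen. Some genes of the alpha cell list are not reported here, and its counts leave them out. The genes, the lists and the tests were chosen with earlier results of these data known. The 25 alternatives were other scalings (RLE, upper-quartile, library size only, without hormone genes), DESeq2 1.42.0, limma-voom (limma 3.58.1), no filter, a threshold of 0.05, a replicate block, and leaving out each library. Promoter sequences are from RefSeq (GRCm38.p6).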

Additional observations from a re-analysis of the deposited data

Results flagged for a closer look

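Among the 32 sets of 4 libraries (8 genes in 4 conditions), 2 had a library that stood apart from the other 3 by Dixon's test at the 95% level, which chance alone gives in about 1 of 20 sets. *Sst* in replicate 1 of the islets with both agents was at a log2 CPM of 11.5 (3000 CPM), and the other 3 were at 11.3. *Ppy* in replicate 4 of the same condition was at a log2 CPM of 10.4 (1350 CPM), and the other 3 were at 10.8 to 10.9. Without that library, *Ppy* with both agents against IL-1β alone had a log2 fold change of 0.65 (adjusted p = 0.00614) in place of 0.56 (adjusted p = 0.0154). The *Sst* calls were kept without the first library.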

How the results depend on the processing

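Of 1200 values (8 genes, 6 comparisons, 25 alternatives), 1123 kept their direction or side of the threshold, 65 gained a call, 12 lost one and 0 reversed. In 50 of the 1123, a value that was not called changed sign. The lost calls were those of *Gcg* and *Irx2* named above, and the *Ttr* and *Sst* calls and the *Irx2* calls of butyrate alone and with IL-1β held under all 25. For IL-1β against control, the number of genes called was 1, and 2 with library size only and with DESeq2, and 3 with limma-voom, with a replicate block and at an adjusted p under 0.05. For butyrate against control it was 3, and 6 with the block. Upper-quartile scaling, library size only, DESeq2, limma-voom and a threshold of 0.05 each added *Ppy* there. For both agents against control the number was 3, and 5 with library size only, DESeq2, limma-voom, no filter or a threshold of 0.05. It was 6 with the block or without control replicate 1. For both against butyrate it was 2, and 5 with the block, and for the interaction 0, and 1 with no filter or with the block (*Gcg*, adjusted p = 6.92e-06 and 0.00685). Leaving out 1 library gave 1 to 1, 3 to 4, 3 to 6, 2 to 2 and 0 to 0 genes in the same order, and 3 to 5 in place of 4 for both against IL-1β, where the other alternatives gave 4 to 6 (6 with the block and at 0.05, each adding *Hhex* and *Ppy*). Over all genes the calls rose too with the block and at 0.05. For IL-1β against control they were 3311, 4537 with the block and 4883 at 0.05. In the same order they were 3697, 4879 and 5407 for butyrate against control. They were 5688, 6899 and 7438 for both against control, and 2747, 3750 and 4025 for both against butyrate. For both against IL-1β they were 3629, 4983 and 5595. The cause of these changes was not tested.

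Libraries of the same replicate number deviated together with a correlation of 0.053 to 0.40, not over 0.1 in every pair, and 3 or 4 of 4 libraries correlated best with their own number. The paper speaks of independent experiments without tying these numbers to them, so the numbers were not taken as pairs, and the block, which gained 14 calls and lost 0, is an alternative only. It added *Rbp4* (adjusted p = 9.88e-07) and *Ppy* (0.00132) for IL-1β against control, *Hhex* (0.00247), *Ppy* (0.000178) and *Pyy* (0.00816) for butyrate against control, *Hhex* (5.76e-05) and *Ppy* (0.000326) for both against IL-1β, *Gcg* (0.000454), *Hhex* (0.00025) and *Rbp4* (5.95e-07) for both against control, and *Rbp4* (9.79e-06), *Ppy* (0.000783) and *Pyy* (0.000637) for both against butyrate, beside *Gcg* in the interaction. Over all genes the interaction had 18 calls, 52 with DESeq2, 95 with no filter, 132 with the block, 39 at a threshold of 0.05 and 11 without butyrate replicate 1, and both agents against IL-1β had 3629, and 5595 at 0.05. No scaling moved the median of all genes by more than 0.1 on the log2 scale. The counts of *Hhex* and *Irx2* limit the precision of their values.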

Other observations

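*Hhex* and *Rbp4* were each highest in replicate 1 in 4 of 4 conditions, *Pyy* was highest there in 3 of 4, and *Ttr* was lowest there in 3 of 4. *Irx2* and *Rbp4* were lowest in replicate 4 in 3 of 4 conditions. The paper describes the replicates as independent experiments, and whether libraries of the same number come from the same experiment is not given in the sources used here. These values were not tested.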
